A study of Rattus norvegicus with 12 samples.

Results

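Expression of 7 genes of osmolyte and urea handling was examined in the renal cortex of Zucker rats: the tonicity-response transcription factor gene Nfat5, the osmolyte transporter genes Slc5a3, Slc6a6 and Slc6a12, the polyol pathway genes Akr1b1 and Sord, and the urea transporter gene Slc14a2. They were listed by name and role, with no threshold on their values, and all 7 were present among the 13151 genes of the table. RNA sequencing was performed on 12 male rats aged 32 weeks, with 4 rats per group. Zucker lean (ZL) rats were the controls, and Zucker fatty (ZF) rats were obese through an inherited leptin receptor deficiency. The third group (ZF-SGLT2i) consisted of ZF rats fed the sodium-glucose cotransporter 2 (SGLT2) inhibitor canagliflozin at 10 mg/kg/day between the ages of 24 and 32 weeks, with food per body weight matched to that of the untreated ZF rats. No lean rats received the drug. The authors' methods describe ZL rats only in a study with earlier kidney wedge biopsies, and the treated rats in a separate study with no biopsy described. In a figure legend the authors call the sequenced untreated rats nontreated ZF (ZF-NT), the name of the untreated group in the treatment study. Their text on the sequencing calls these rats only ZF, so the study they came from is not stated outright. The part of these differences in the results was not tested.

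Cells exposed to a concentrated extracellular fluid accumulate compatible organic osmolytes, mainly sorbitol, myo-inositol, betaine, glycerophosphocholine (GPC) and taurine, which protect proteins from high salt and urea. NFAT5 (also called TonEBP) is the transcription factor that raises the genes for this response by binding tonicity-responsive enhancer (TonE) elements. The response is best known from the renal medulla, where urine is concentrated, whereas the cortex is bathed in fluid of normal tonicity. SGLT2 inhibitors act on the proximal tubule of the cortex and cause loss of glucose and water in the urine.

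The TonE element is built around the core TGGAAA, which was searched on both strands of the RefSeq promoter windows of GRCr8, each 300 bases long with 250 bases before and 50 after the start of the gene. Windows were matched for 5 of the 7 genes, namely Slc5a3, Slc6a6, Slc6a12, Sord and Slc14a2, and only the Slc6a6 window held the core. The core was found in 22.7% of all 33469 windows. The match in Slc6a6 is given here from the strand of the gene, in the interval chr4:125752336-125752361 of GRCr8, where the capitals mark the core on the opposite strand, 156 bases before the start of the gene.
Slc6a6: agctggtattTTTCCAcccagcagga
This match also met the longer TonE consensus, which overlaps the core and was present in 5.98% of all windows. A match describes these letters and does not show binding. Bases outside these windows were not searched, nor were Nfat5 and Akr1b1. The absence of a match here does not show that a gene lacks the element.

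Values are read counts that the authors scaled by a factor per rat (CPM). After scaling, the values did not sum to the same total in each rat, with 1007732 to 1058520 for the ZL rats, 948262 to 988883 for the ZF rats and 980043 to 1010982 for the ZF-SGLT2i rats. A value of 1 corresponded to about 10 reads, since 1 read was worth 0.0855 to 0.113 across the rats. The depth on genes ranged from 8824980 to 12210257 reads. The share of ribosomal RNA genes was 7.25% to 12% for the ZL rats, 8.82% to 12% for the ZF rats and 11.5% to 15.2% for the ZF-SGLT2i rats, and the part of this in the results was not tested. Markers of the labelled tissue were present, with a mean of 8340 for Lrp2, an endocytic receptor of the proximal tubule. The most abundant of 4 inner medulla markers, Aqp4, averaged 72.9. The summed value of 6 proximal tubule markers was 18200 ± 1110 (SD, n = 4) in ZL rats, 14600 ± 1630 in ZF rats and 12500 ± 1390 in ZF-SGLT2i rats. Lrp2 was the most abundant of these markers. The sum of 7 collecting duct principal cell markers was 1380 ± 274 in ZL rats, 1800 ± 279 in ZF rats and 2290 ± 246 in ZF-SGLT2i rats. In such bulk samples, fewer cells of a type and less RNA per cell cannot be told apart. ZL rats 1 and 4 stood apart from ZL rats 2 and 3 in several listed genes. For example, Cdo1, the gene of cysteine dioxygenase, was 64.6 in ZL rat 1 and 112 in ZL rat 4, against 25.5 in ZL rat 2 and 26.1 in ZL rat 3. Where a call given for the 7 genes or the wider list in a comparison with ZL was lost without these 2 rats, the value without them is given beside it; for the marker lists this was not tabulated.

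ZF against ZL addressed how obesity changed these genes. Akr1b1, the gene of aldose reductase that makes sorbitol from glucose, rose in ZF rats, and Slc5a3, the gene of the sodium/myo-inositol cotransporter SMIT1, fell. Nfat5, Slc6a6, Slc6a12 and Sord did not pass the test, and Slc14a2 was too low for it. Thus 2 of the 6 tested genes were called, 1 higher and 1 lower, at an adjusted p under 0.05 in limma, whereas 18.8% of all 11633 genes tested were called, 8.19% higher and 10.6% lower. At an unadjusted p under 0.05, 4 of the 6 genes passed, as did 33.1% of all genes. The median log2 fold change was 0.148 over the 6 genes and -0.008 over all genes tested.

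Akr1b1 was 16.9, 17.7, 14.5 and 17.4 in ZL rats 1 to 4, 22.5, 18.9, 22 and 20.1 in ZF rats 2 to 5, and 20.9, 22.1, 19.3 and 22.5 in ZF-SGLT2i rats 2, 3, 4 and 6. All ZF rats were above all ZL rats, and the untreated and treated ZF rats overlapped. The log2 fold change in ZF against ZL was 0.31 (SE 0.09, 95% interval 0.13 to 0.5, adjusted p = 0.022 in limma), and the exact permutation test gave 0.0286, the smallest p that 70 assignments of 4 rats against 4 allow. These values rested on 128 to 257 reads per rat. The groups did not overlap in 19% of all genes tested.

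Sord encodes sorbitol dehydrogenase, which oxidizes sorbitol to fructose in the next step of the polyol pathway. Its values were 615, 636, 639 and 499 in ZL rats 1 to 4, 445, 536, 566 and 484 in ZF rats 2 to 5, and 554, 478, 455 and 417 in ZF-SGLT2i rats 2, 3, 4 and 6. ZL rats 1 to 3 were above every other rat, while ZL rat 4 lay within the range of both ZF groups. The log2 fold change of Sord in ZF against ZL was -0.23 (95% interval -0.46 to -0.01), which did not pass the adjusted threshold (adjusted p = 0.14) except without ZL rat 4 (adjusted p = 0.045). After quantile normalization the difference was -0.01 (adjusted p = 0.97). The sum of proximal tubule markers was also lowest in ZF-SGLT2i rats, and its part in the Sord values was not tested.

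Slc5a3 was 59, 72.6, 67.2 and 84.5 in ZL rats 1 to 4, 60.9, 45.9, 47.5 and 57.8 in ZF rats 2 to 5, and 47, 52.6, 42 and 51.9 in ZF-SGLT2i rats 2, 3, 4 and 6. ZL and ZF overlapped through a single pair, ZL rat 1 and ZF rat 2, and every ZF-SGLT2i rat was below every ZL rat. Slc5a3 fell by 0.41 on the log2 scale in ZF against ZL (SE 0.12, 95% interval -0.66 to -0.16, adjusted p = 0.027), with an exact permutation p of 0.0571.

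Slc6a6, the gene of the taurine transporter, was 108, 104, 85.2 and 103 in ZL rats 1 to 4, 128, 131, 125 and 100 in ZF rats 2 to 5, and 120, 129, 141 and 116 in ZF-SGLT2i rats 2, 3, 4 and 6. ZF rat 5 was the only rat of either ZF group within the ZL range. The log2 fold change in ZF against ZL was 0.28 (95% interval 0.07 to 0.48, adjusted p = 0.062, exact permutation p = 0.114). It passed in limma in 4 of 21 alternative settings, among them the omission of ZF rat 5 (adjusted p = 0.016). With all 12 rats it passed after quantile normalization (0.34, adjusted p = 0.025) and with array quality weights (0.27, adjusted p = 0.04).

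Nfat5 averaged 363 ± 18.6 in ZL rats, 368 ± 21.5 in ZF rats and 384 ± 22.7 in ZF-SGLT2i rats (SD, n = 4). The 12 rats lay between 342 and 408; ZF-SGLT2i rats 3 (398) and 6 (408) were the highest, and the other treated rats lay within the range of both untreated groups. The ZF against ZL difference on the log2 scale was 0.02 with a 95% interval of -0.12 to 0.16, the narrowest interval of the 6 tested genes. Slc6a12, the gene of the betaine/GABA transporter BGT1, was near the detection limit, with 2 to 17 reads per rat and values from 0.227 to 1.6. Its interval in the same comparison was -0.25 to 0.85 and did not exclude a difference in either direction.

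The call of Slc5a3 in ZF against ZL was lost without ZL rat 2, ZL rat 4, ZF rat 3 or ZF rat 4 (adjusted p = 0.051, 0.069, 0.086 and 0.058), and that of Akr1b1 without ZL rat 3 or ZF rat 2 (adjusted p = 0.057 and 0.068). Without ZL rats 1 and 4 together, 0 of the 6 genes were called in limma although 5 had an unadjusted p under 0.05, and the log2 fold changes were -0.4 for Slc5a3 and 0.36 for Akr1b1.

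**Figure D1:**
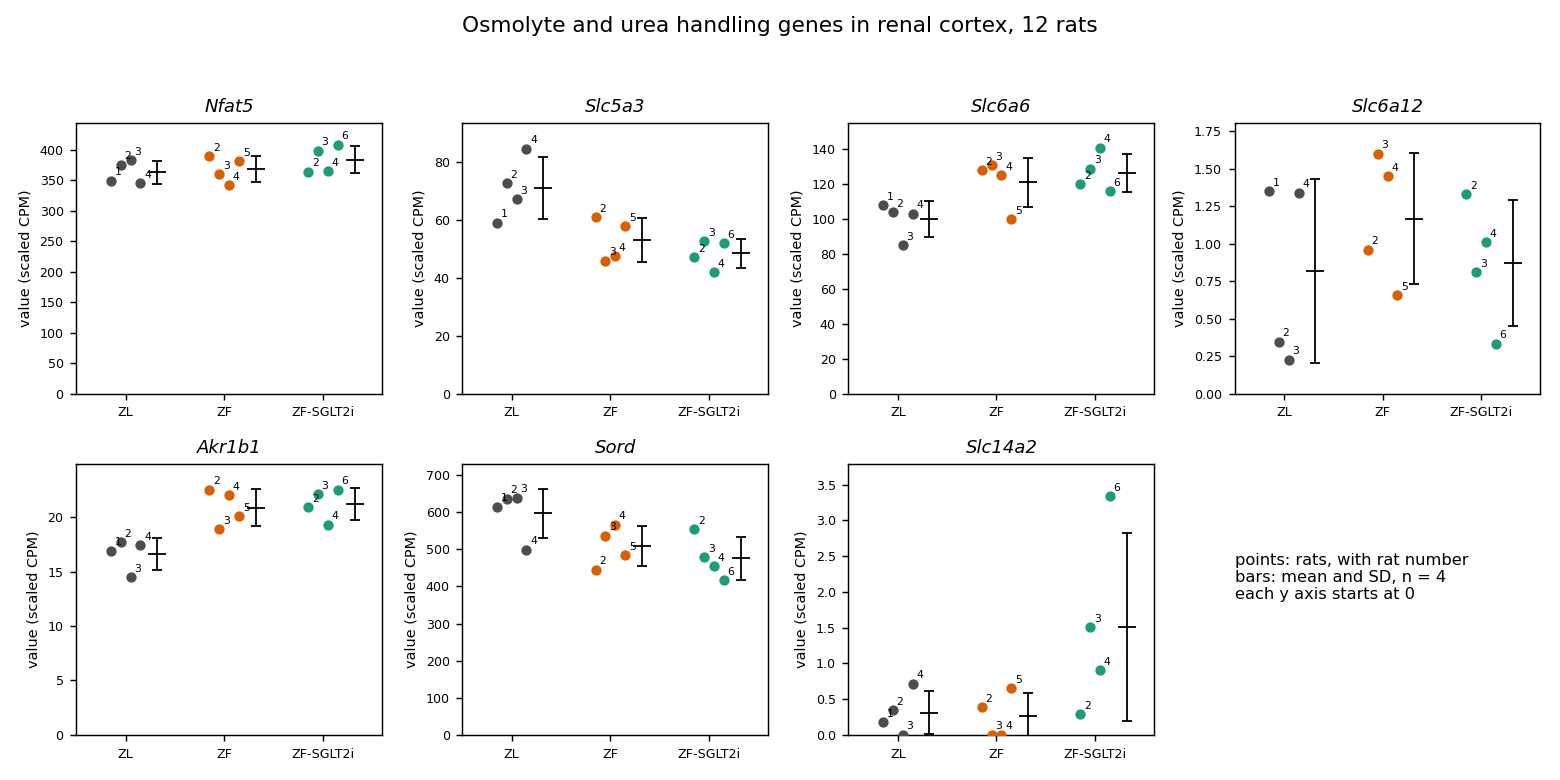
Value in scaled CPM (y axis, from 0) of each of the 7 genes in each rat of the ZL, ZF and ZF-SGLT2i groups (x axis); points are rats with their numbers, and bars are the mean and SD of 4 rats. Akr1b1 is at 14.5 to 17.7 in ZL and at 18.9 to 22.5 in the 8 ZF rats, whereas Nfat5 lies between 342 and 408 in all groups.

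ZF-SGLT2i against ZF addressed the effect of canagliflozin in obese rats. None of the 6 tested genes passed the test: 0 of 6 were called in limma, 0 of 6 had an unadjusted p under 0.05, and the lowest unadjusted p was 0.303. Of all genes tested, 3.15% were called in this comparison (1.39% higher and 1.75% lower), and 17.2% had an unadjusted p under 0.05. The log2 fold changes were 0.06 for Nfat5 (95% interval -0.08 to 0.2), 0.02 for Akr1b1 (-0.16 to 0.21), -0.09 for Sord (-0.32 to 0.13) and 0.06 for Slc6a6 (-0.15 to 0.27). For Slc5a3 the value was -0.13 (-0.38 to 0.13). The widest interval was that of Slc6a12, from -0.77 to 0.33 around -0.22. With 4 rats per group, differences of the sizes within these intervals were not excluded.

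ZF-SGLT2i against ZL compared treated obese rats with lean controls. Akr1b1 and Slc6a6 rose, and Slc5a3 and Sord fell, so that 4 of the 6 tested genes were called in limma, 2 in each direction. The share called among all genes was 27.4% in this comparison, 12.4% higher and 15% lower. At an unadjusted p under 0.05 the same comparison passed 4 of the 6 genes and 39.3% of all genes. The comparison shares its ZL rats with ZF against ZL and its treated rats with ZF-SGLT2i against ZF, so the 3 sets of values are given side by side and are not independent.

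Slc5a3 fell by 0.53 on the log2 scale in ZF-SGLT2i against ZL (95% interval -0.79 to -0.28, adjusted p = 0.0046), from 70.8 ± 10.7 to 48.4 ± 4.95 (SD, n = 4). It remained called when each of the 12 rats was left out in turn and without ZL rats 1 and 4. Slc6a6 rose by 0.34 (0.13 to 0.55, adjusted p = 0.019), from 99.9 ± 10.1 to 126 ± 11.1. Akr1b1 rose by 0.34 (0.15 to 0.52, adjusted p = 0.011), from 16.6 ± 1.45 to 21.2 ± 1.43. The groups did not overlap for these 3 genes, as for 28% of all genes tested, and each exact permutation p was 0.0286. Sord fell by 0.33 (-0.55 to -0.1, adjusted p = 0.034), from 597 ± 66.2 to 476 ± 57.7, with an overlap of ZL rat 4 and ZF-SGLT2i rat 2 and an exact permutation p of 0.0571. Nfat5 differed by 0.08 (-0.06 to 0.22) and Slc6a12 by 0.08 (-0.47 to 0.63), neither of which passed the test.

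Slc6a6 was no longer called without ZL rat 3, ZF-SGLT2i rat 3 or ZF-SGLT2i rat 4 (adjusted p = 0.054, 0.051 and 0.056). Sord was no longer called after the omission of any of 6 single rats (adjusted p = 0.068 to 0.11) or after quantile normalization, where its log2 fold change was -0.11 (adjusted p = 0.45).

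**Figure D2:**
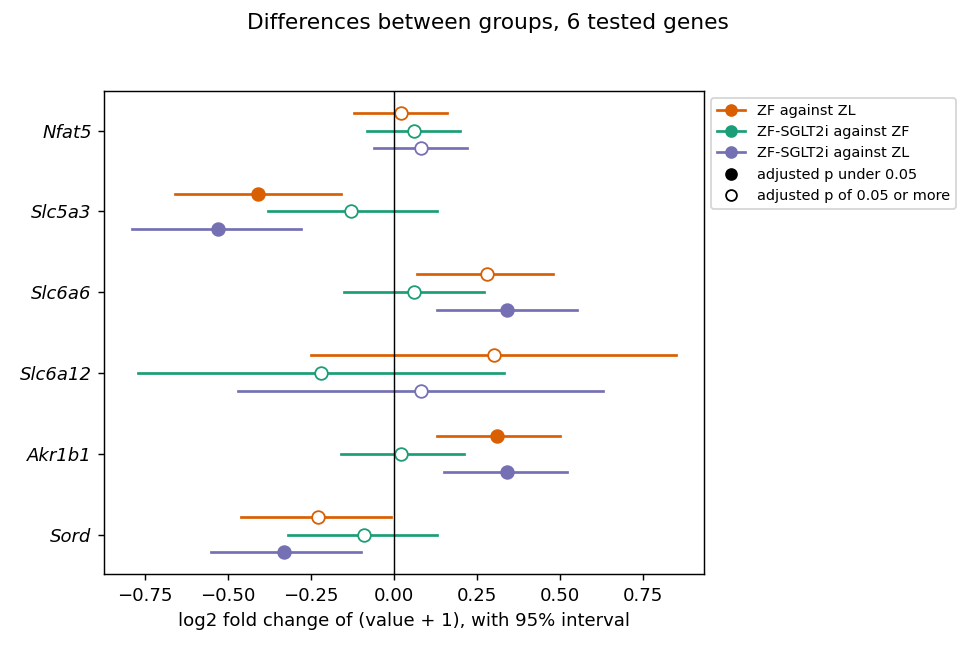
Log2 fold change of (value + 1) with its 95% interval (x axis) for the 6 tested genes (y axis) in the 3 comparisons; filled points have an adjusted p under 0.05 in limma. Slc5a3 lies left of 0 and Akr1b1 right of 0 in both comparisons with ZL, and every interval of ZF-SGLT2i against ZF includes 0.

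Slc14a2 encodes the UT-A urea transporters, which carry urea through inner medullary collecting duct and thin descending limb cells. It did not pass the filter on low values, since only ZF-SGLT2i rats 3 and 6 reached a value of 1. The values were 0.179, 0.347, 0 and 0.715 in ZL rats 1 to 4, 0.384, 0, 0 and 0.656 in ZF rats 2 to 5, and 0.286, 1.51, 0.906 and 3.34 in ZF-SGLT2i rats 2, 3, 4 and 6. Treated rats 3, 4 and 6 were above every untreated rat, and treated rat 2 lay among the untreated rats. The groups held 14, 10 and 57 reads in all, and 30 of the 57 came from ZF-SGLT2i rat 6. A count of 0 allows up to 3 reads, a value of 0.34 in ZL rat 3, 0.301 in ZF rat 3 and 0.256 in ZF rat 4, and these limits cover counting error only. The exact permutation p was 0.0857 in ZF-SGLT2i against ZF and 0.0857 in ZF-SGLT2i against ZL, so the difference did not pass the threshold. The log2 fold change against ZF was 0.89 with a pseudocount of 1 and 2.3 with a pseudocount of 0.1, so its size depends on this choice. Over the omission of single rats, it ranged from 0.58 (without ZF-SGLT2i rat 6) to 1.16 and the exact permutation p from 0.029 to 0.17, and only the omission of ZF-SGLT2i rat 2 gave a p under 0.05.

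Markers of the collecting duct and inner medulla differed in their patterns. Aqp2, the vasopressin-regulated water channel of principal cells, was 447, 594, 391 and 340 in ZL rats 1 to 4, 549, 630, 422 and 632 in ZF rats 2 to 5, and 781, 842, 823 and 962 in ZF-SGLT2i rats 2, 3, 4 and 6. All treated rats were above all untreated rats, and the 2 ZF groups did not overlap in 11.2% of all genes tested. Of the 7 principal cell markers, 1 rose in ZF-SGLT2i against ZF and 6 rose in ZF-SGLT2i against ZL, where 1.39% and 12.4% of all genes rose. The summed value of the 4 inner medulla markers, Cryab, Slc4a11 and Aqp4 among them, was 152 ± 40.5 in ZL rats, 123 ± 14 in ZF rats and 162 ± 18.8 in ZF-SGLT2i rats (SD, n = 4). Slc4a11 rose by 0.56 (adjusted p = 0.015) and Aqp4 by 0.76 (adjusted p = 0.025) in ZF-SGLT2i against ZL, and none of the list was called in ZF-SGLT2i against ZF. Cryab, the gene of the small heat shock protein alpha B-crystallin, had values in the other direction, with 83.3, 31.3, 27.9 and 136 in ZL rats 1 to 4, 33.8 to 43.1 in ZF rats and 26.9 to 32.8 in ZF-SGLT2i rats. Every treated rat was below every untreated ZF rat for Cryab, but it was not called in either comparison of treated rats (adjusted p = 0.807 against ZF and 0.103 against ZL). ZF-SGLT2i rat 6 had the highest Slc14a2, Aqp2 (962), Aqp4 (122) and principal cell sum (2630) of all rats, whereas the inner medulla sum was highest in ZL rat 4 (194), followed by ZF-SGLT2i rat 6 (187). No marker of either list was at 0 in any rat. The part of a different share of medullary or collecting duct tissue in the Slc14a2 values was not tested.

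Marker lists of other cell types also differed between the groups. The summed value of 4 measured markers of injured tubule was 197 ± 7.27 in ZL rats, 878 ± 583 in ZF rats and 606 ± 295 in ZF-SGLT2i rats (SD, n = 4), with every ZF rat, treated or not, above every ZL rat. Spp1 was the most abundant of these markers. Of these 4, 3 rose in ZF against ZL, where 8.19% of all genes rose. In ZF-SGLT2i against ZL, 2 rose and Vcam1 fell by 0.5 (adjusted p = 0.0339), beside 12.4% and 15% of all genes. Vcam1 was the only one of them called in ZF-SGLT2i against ZF, where it fell by 0.67 (adjusted p = 0.0387), beside 1.75% of all genes. The sum of 4 fibroblast markers was 340 ± 64.1 in ZL rats, 480 ± 102 in ZF rats and 282 ± 8.96 in ZF-SGLT2i rats, and 2 of the 4 rose in ZF against ZL (beside 8.19% of all genes) while 3 fell in ZF-SGLT2i against ZF (beside 1.75%). Podocyte markers summed to 1190 ± 159 in ZL rats, 1560 ± 161 in ZF rats and 1620 ± 181 in ZF-SGLT2i rats, and 3 of 4 rose in each comparison with ZL, beside 8.19% of all genes in ZF and 12.4% in treated rats. The sum of 5 thick limb markers was 4440 ± 1060 in ZL rats, 4330 ± 869 in ZF rats and 3180 ± 302 in ZF-SGLT2i rats. Its members went in both directions, with 2 lower (Umod and Slc12a1) and 3 higher in each comparison of treated rats. Of these 5, 0 were called against ZF (beside 3.15% of all genes), and only Umod fell against ZL (-0.6, adjusted p = 0.0347, beside 15%). For 2 measured distal tubule markers the sum was 2840 ± 696 in ZL rats, 3210 ± 642 in ZF rats and 4180 ± 215 in ZF-SGLT2i rats. In that order, the sums were 1290 ± 254, 1260 ± 217 and 1650 ± 24.5 for intercalated cells, 293 ± 44.7, 350 ± 25.4 and 336 ± 45.1 for endothelium, 48.2 ± 8.72, 62.8 ± 12.3 and 53.1 ± 20.5 for macrophages, and 1.11 ± 0.246, 4.17 ± 1.81 and 5.52 ± 4.08 for blood. The part of these lists in the values of the osmolyte and urea genes was not tested.

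**Figure D3:**
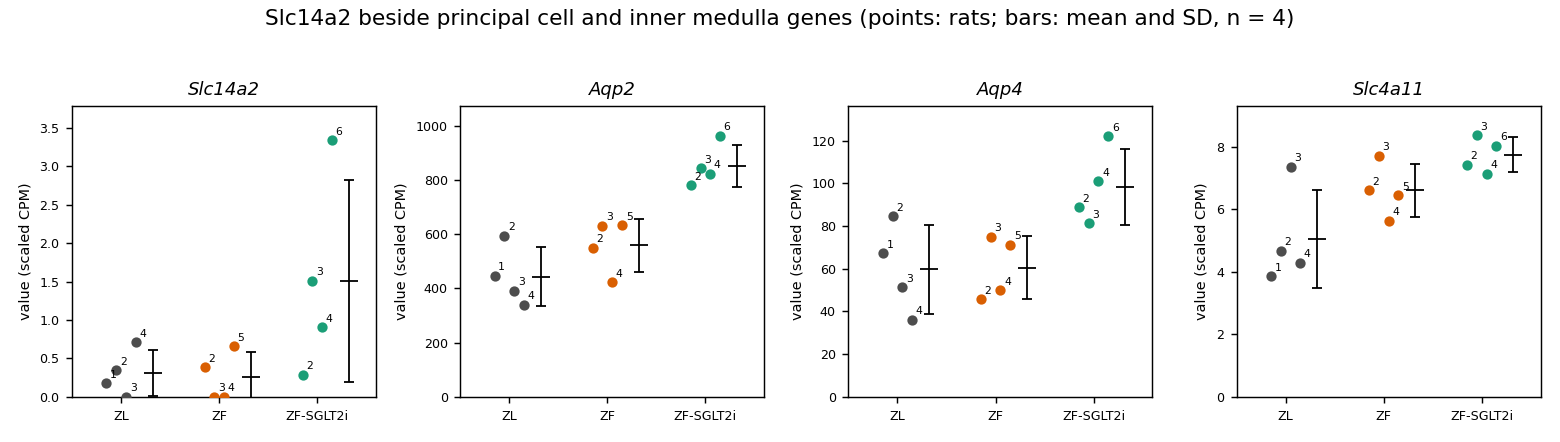
Value in scaled CPM (y axis, from 0) of Slc14a2, Aqp2, Aqp4 and Slc4a11 in each rat of the ZL, ZF and ZF-SGLT2i groups (x axis); points are rats with their numbers, and bars are the mean and SD of 4 rats. ZF-SGLT2i rat 6 is the highest rat for Slc14a2 (3.34), Aqp2 (962) and Aqp4 (122).

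A wider list of 66 genes covered NFAT5 partners, other tonicity-response genes, the metabolism and transport of each osmolyte, urea production and channels, and cell volume regulation. The table held 64 of them and 63 were tested. In ZF against ZL, 17 of the 63 were called, 3 higher and 14 lower (27%, beside 18.8% of all genes tested). The comparison of ZF-SGLT2i with ZF had 3 calls, 2 higher and 1 lower (4.76%, beside 3.15%), and that of ZF-SGLT2i with ZL had 32, 12 higher and 20 lower (50.8%, beside 27.4%). The median log2 fold changes were -0.052, -0.027 and -0.053, beside -0.008, 0.006 and 0 over all genes tested.

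Of the 5 listed genes of taurine synthesis and uptake, 4 fell in ZF and 4 fell in ZF-SGLT2i rats against ZL, where 10.6% and 15% of all genes fell. The fifth, Ado, was not called (log2 fold changes of 0.15 and 0.03). The sum of proximal tubule markers, given above, was also lower in both ZF groups, although its 6 members went in both directions in ZF against ZL. There, Slc22a6, an organic anion transporter gene, rose by 0.33 (adjusted p = 0.0402), Slc5a1, the gene of the glucose transporter SGLT1, fell by 0.99 (adjusted p = 0.00427), and Lrp2 was not called (-0.47, adjusted p = 0.0731). In ZF-SGLT2i against ZL, 3 of the 6 fell (Slc34a1, Lrp2 and Slc5a1) and 0 rose. The part of these markers in the taurine gene differences was not tested. Slc6a13, a GABA transporter gene whose product also carries taurine, was 51.8, 33.8, 47.6 and 47.6 in ZL rats 1 to 4, between 24 and 29.6 in ZF and between 25.5 and 28.6 in ZF-SGLT2i rats. The lowest ZL rat was above every ZF rat, treated or not. Slc6a13 fell by 0.76 on the log2 scale in ZF against ZL (SE 0.11, adjusted p = 0.00082) and by 0.7 in ZF-SGLT2i against ZL (adjusted p = 0.00067).

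Csad, the gene of cysteine sulfinic acid decarboxylase in the path from cysteine to taurine, was 110, 67, 73.8 and 159 in ZL rats 1 to 4, between 42.5 and 59.7 in ZF and between 47.3 and 51.5 in ZF-SGLT2i rats. It fell by 0.91 in ZF against ZL (adjusted p = 0.0091), and by 0.46 without ZL rats 1 and 4 (adjusted p = 0.026). Cdo1, in the preceding step, fell by 1.3 (adjusted p = 0.024), and without ZL rats 1 and 4 the difference was -0.46 and did not pass (adjusted p = 0.12). In ZF-SGLT2i against ZL, Cdo1 fell by 1.37 (adjusted p = 0.0135), with -0.53 and no call without those rats (adjusted p = 0.058). The differences of both genes were thus smaller without these 2 lean rats.

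Slc36a1 encodes the proton-coupled amino acid transporter PAT1 and was the only gene of the 63 called in all 3 comparisons. It was 26.5, 32.2, 28.1 and 30.6 in ZL rats 1 to 4, 19.3, 21.4, 22.7 and 21.9 in ZF rats 2 to 5, and 17.4, 17, 14.2 and 15 in ZF-SGLT2i rats 2, 3, 4 and 6. None of the groups overlapped. The log2 fold changes were -0.44 in ZF against ZL (adjusted p = 0.0046), -0.4 in ZF-SGLT2i against ZF (adjusted p = 0.025) and -0.84 in ZF-SGLT2i against ZL (adjusted p = 2.9e-05). In ZF-SGLT2i against ZF the call was lost on omission of any of 4 single rats (adjusted p = 0.066 to 0.075).

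Of the 6 inositol genes, 2 fell in each comparison with ZL (33.3%, beside 18.8% and 27.4% of all genes called), and 0 were called in ZF-SGLT2i against ZF (beside 3.15%). Miox, the gene of the proximal tubule enzyme that opens the myo-inositol ring, was 2310, 1680, 2150 and 2030 in ZL rats 1 to 4, 1220, 1170, 1480 and 1090 in ZF rats 2 to 5, and 1450, 1270, 1330 and 1030 in ZF-SGLT2i rats 2, 3, 4 and 6. Every ZL rat was above every ZF rat, treated or not. It fell by 0.72 in ZF against ZL (SE 0.13, adjusted p = 0.0028) and by 0.68 in ZF-SGLT2i against ZL (adjusted p = 0.0019). Slc5a11, the gene of a second inositol cotransporter, SMIT2, averaged 35.7 ± 2.18 in ZL rats, 28.5 ± 5.27 in ZF rats and 26.7 ± 1.81 in ZF-SGLT2i rats (SD, n = 4). The Slc5a11 call in ZF against ZL (-0.33, adjusted p = 0.048) was lost on omission of any of 11 single rats and without ZL rats 1 and 4 (-0.4, adjusted p = 0.088). The sum of proximal tubule markers was lower in the same groups as Miox, although Slc22a6 among them rose in ZF against ZL, and its part in the Miox values was not tested.

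**Figure D4:**
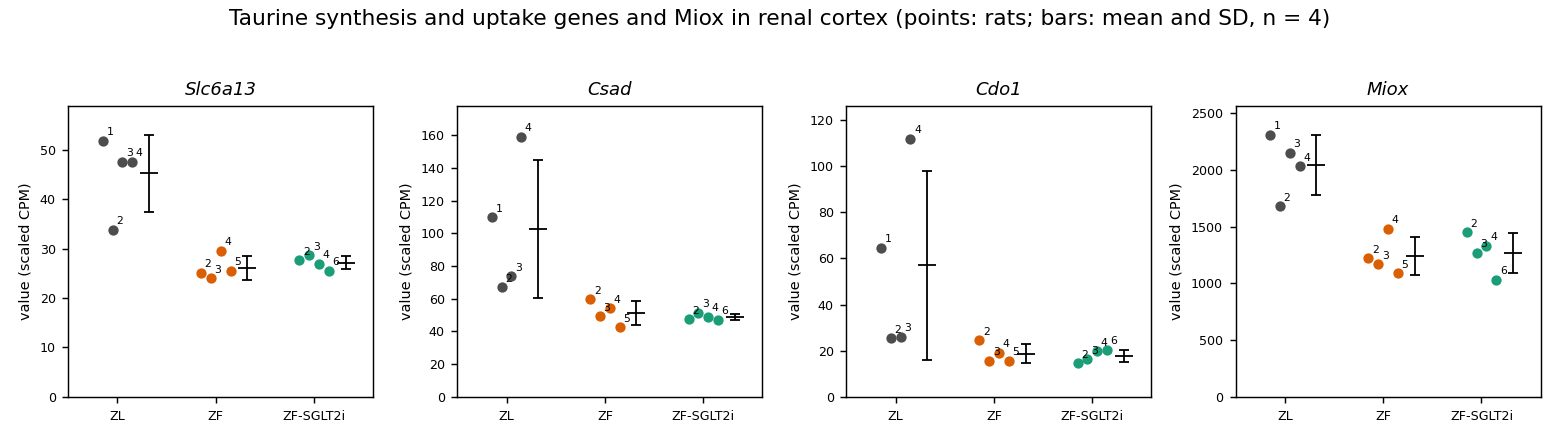
Value in scaled CPM (y axis, from 0) of Slc6a13, Csad, Cdo1 and Miox in each rat of the ZL, ZF and ZF-SGLT2i groups (x axis); points are rats with their numbers, and bars are the mean and SD of 4 rats. ZL rats lie above the ZF and ZF-SGLT2i rats for all 4 genes, and ZL rats 1 and 4 lie far above ZL rats 2 and 3 for Csad and Cdo1.

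Among the 10 tested genes of betaine, choline and GPC metabolism, 1 rose and 3 fell in ZF against ZL, and 3 rose and 3 fell in ZF-SGLT2i against ZL. These shares were 40% and 60%, beside 18.8% and 27.4% of all genes called. Bhmt, whose product consumes betaine to remethylate homocysteine, averaged 90.7 ± 8.02 in ZL rats, 122 ± 28 in ZF rats and 132 ± 11.9 in ZF-SGLT2i rats (SD, n = 4). It rose by 0.41 (adjusted p = 0.039) in ZF and by 0.53 (adjusted p = 0.0073) in ZF-SGLT2i against ZL, and the first of these calls was lost on omission of any of 8 single rats and without ZL rats 1 and 4 (0.48, adjusted p = 0.075). ZF rat 4 was at 161, against 98.5 to 125 in the other untreated ZF rats. Without it the Bhmt difference in ZF against ZL was 0.27 (adjusted p = 0.066). Chdh, the choline dehydrogenase gene in the path to betaine, rose by 0.57 (adjusted p = 0.0035) and Gpcpd1, the gene of a GPC phosphodiesterase, by 0.41 (adjusted p = 0.0027) in ZF-SGLT2i against ZL. Aldh7a1, whose product oxidizes betaine aldehyde among other aldehydes, fell by 0.48 (adjusted p = 0.012) in that comparison, but was not called after quantile normalization (-0.29, adjusted p = 0.06).

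Further along the polyol pathway, 1 of 6 genes fell in ZF against ZL and 3 of 6 fell in ZF-SGLT2i against ZL, where 10.6% and 15% of all genes fell. Khk, the gene of the fructose-phosphorylating enzyme ketohexokinase, was 294, 251, 254 and 362 in ZL rats 1 to 4, 242, 225, 243 and 209 in ZF rats 2 to 5, and 184, 192, 182 and 183 in ZF-SGLT2i rats 2, 3, 4 and 6. The 3 groups did not overlap. Khk fell by 0.32 in ZF against ZL (adjusted p = 0.035), where the call was lost without ZL rats 1 and 4 (-0.14, adjusted p = 0.26) and on omission of any of 5 single rats (adjusted p = 0.053 to 0.094), and by 0.63 in ZF-SGLT2i against ZL (adjusted p = 0.00056), where it was kept without ZL rats 1 and 4 (-0.45, adjusted p = 0.0018). In ZF-SGLT2i against ZF, Khk was not called (-0.31, adjusted p = 0.113), but it passed the threshold without ZL rats 1 and 4 (adjusted p = 0.012), without ZL rat 4 alone (0.02), with only the 2 groups compared (0.018) and with array quality weights (0.041). Slc2a5, the gene of the fructose transporter GLUT5, fell by 0.81 (adjusted p = 0.034) and Akr1a1, the gene of aldehyde reductase, by 0.47 (adjusted p = 0.011) in ZF-SGLT2i against ZL. The Slc2a5 call was lost without ZL rats 1 and 4 (-0.29, adjusted p = 0.31) and on omission of any of 6 single rats (adjusted p = 0.055 to 0.086), and that of Akr1a1 after quantile normalization (-0.25, adjusted p = 0.052).

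Of the 5 tested urea genes, 1 fell in ZF against ZL, and 1 rose and 3 fell in ZF-SGLT2i against ZL (20% and 80%, beside 18.8% and 27.4% of all genes called). Agmat, whose product releases urea from agmatine, fell by 0.77 (adjusted p = 0.014) in ZF-SGLT2i against ZL, with -0.35 and no call without ZL rats 1 and 4 (adjusted p = 0.11). Aqp3, the basolateral aquaglyceroporin gene of principal cells, rose by 0.71 (adjusted p = 0.0028), and Aqp7, the gene of a proximal tubule aquaglyceroporin, fell by 0.74 (adjusted p = 0.022) in the same comparison. The Aqp7 call was lost without ZL rats 1 and 4 (-0.45, adjusted p = 0.23) and on omission of any of 3 single rats (adjusted p = 0.06 to 0.076). Slc14a1, the gene of the vascular and erythrocyte urea transporter UT-B, was below the filter, with values up to 0.987.

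Akap13 and Aqp2 were the genes of the wider list that rose in ZF-SGLT2i against ZF. Akap13, a guanine nucleotide exchange factor gene described upstream of NFAT5, was 271 to 275 in ZL, 277 to 320 in ZF, and 374, 387, 324 and 451 in ZF-SGLT2i rats 2, 3, 4 and 6. It rose by 0.33 (SE 0.08, adjusted p = 0.0492) against ZF and by 0.48 (adjusted p = 0.0011) against ZL. Aqp2, which is also one of the principal cell markers above, rose by 0.62 (SE 0.16, adjusted p = 0.0495) against ZF and by 0.97 (adjusted p = 0.00074) against ZL. In ZF-SGLT2i against ZF both calls were close to the threshold, and each was lost on omission of any of 9 single rats (adjusted p = 0.058 to 0.14 for Akap13, 0.055 to 0.14 for Aqp2) and after quantile normalization (0.1 and 0.072).

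Of the 11 NFAT5 partners, 1 fell in ZF against ZL, and 2 rose and 2 fell in ZF-SGLT2i against ZL (9.09% and 36.4%). Among the 7 other tonicity-response genes tested, 1 fell in ZF against ZL and 3 rose in ZF-SGLT2i against ZL (14.3% and 42.9%). The shares of all genes called were 18.8% and 27.4%. Mapk14, the gene of the stress kinase p38 alpha, fell by 0.17 in ZF (adjusted p = 0.029) and by 0.23 in ZF-SGLT2i (adjusted p = 0.0043) against ZL. The first of these calls was lost on omission of any of 5 single rats (adjusted p = 0.054 to 0.073) and without ZL rats 1 and 4 (-0.17, adjusted p = 0.11). Both calls were lost after quantile normalization (-0.09 and -0.13). Atm, a kinase gene of the NFAT5 activation path, rose by 0.26 (adjusted p = 0.017), and Dhx9, the gene of an RNA helicase that binds NFAT5, fell by 0.2 (adjusted p = 0.038) in ZF-SGLT2i against ZL. Without ZL rats 1 and 4 neither was called (0.28, adjusted p = 0.067 for Atm and -0.15, adjusted p = 0.25 for Dhx9). The Atm call was also lost without ZF-SGLT2i rat 2 or 6 (adjusted p = 0.051 and 0.053), and that of Dhx9 on omission of any of 6 single rats. Hspa4l, the gene of osmotic stress protein 94, fell by 0.35 in ZF against ZL (adjusted p = 0.013), with 34.4 to 38.4 in ZL and 24.8 to 32.6 in ZF rats. Without ZL rats 1 and 4 its difference was -0.38 and was not called (adjusted p = 0.052). The inducible HSP70 gene Hspa1b rose by 0.79 (adjusted p = 0.0037) and its near-identical copy Hspa1a by 0.79 (adjusted p = 0.012) in ZF-SGLT2i against ZL, and how the counting divided reads between them is uncertain. Without ZL rats 1 and 4 the differences were 0.55 for Hspa1b (adjusted p = 0.05, just over the threshold) and 0.4 for Hspa1a (adjusted p = 0.16), and neither was called.

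Cell volume regulators showed 2 genes higher and 1 lower of 13 in ZF against ZL, and 3 higher and 3 lower in ZF-SGLT2i against ZL (23.1% and 46.2%, beside 18.8% and 27.4% of all genes called). Slc12a4, the gene of the potassium-chloride cotransporter KCC1, rose by 0.39 in ZF against ZL (adjusted p = 0.0046), with 35.9 to 40.3 in ZL and 45.3 to 56.9 in ZF rats. Without ZL rats 1 and 4 its difference was 0.33 and was not called (adjusted p = 0.051). Wnk4, the kinase gene that controls distal salt cotransport, rose by 0.61 (adjusted p = 0.0031) in ZF-SGLT2i against ZL. Lrrc8b, a subunit gene of the volume-regulated anion channel, fell by 0.39 (adjusted p = 0.0032) in that comparison.

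**Figure D5:**
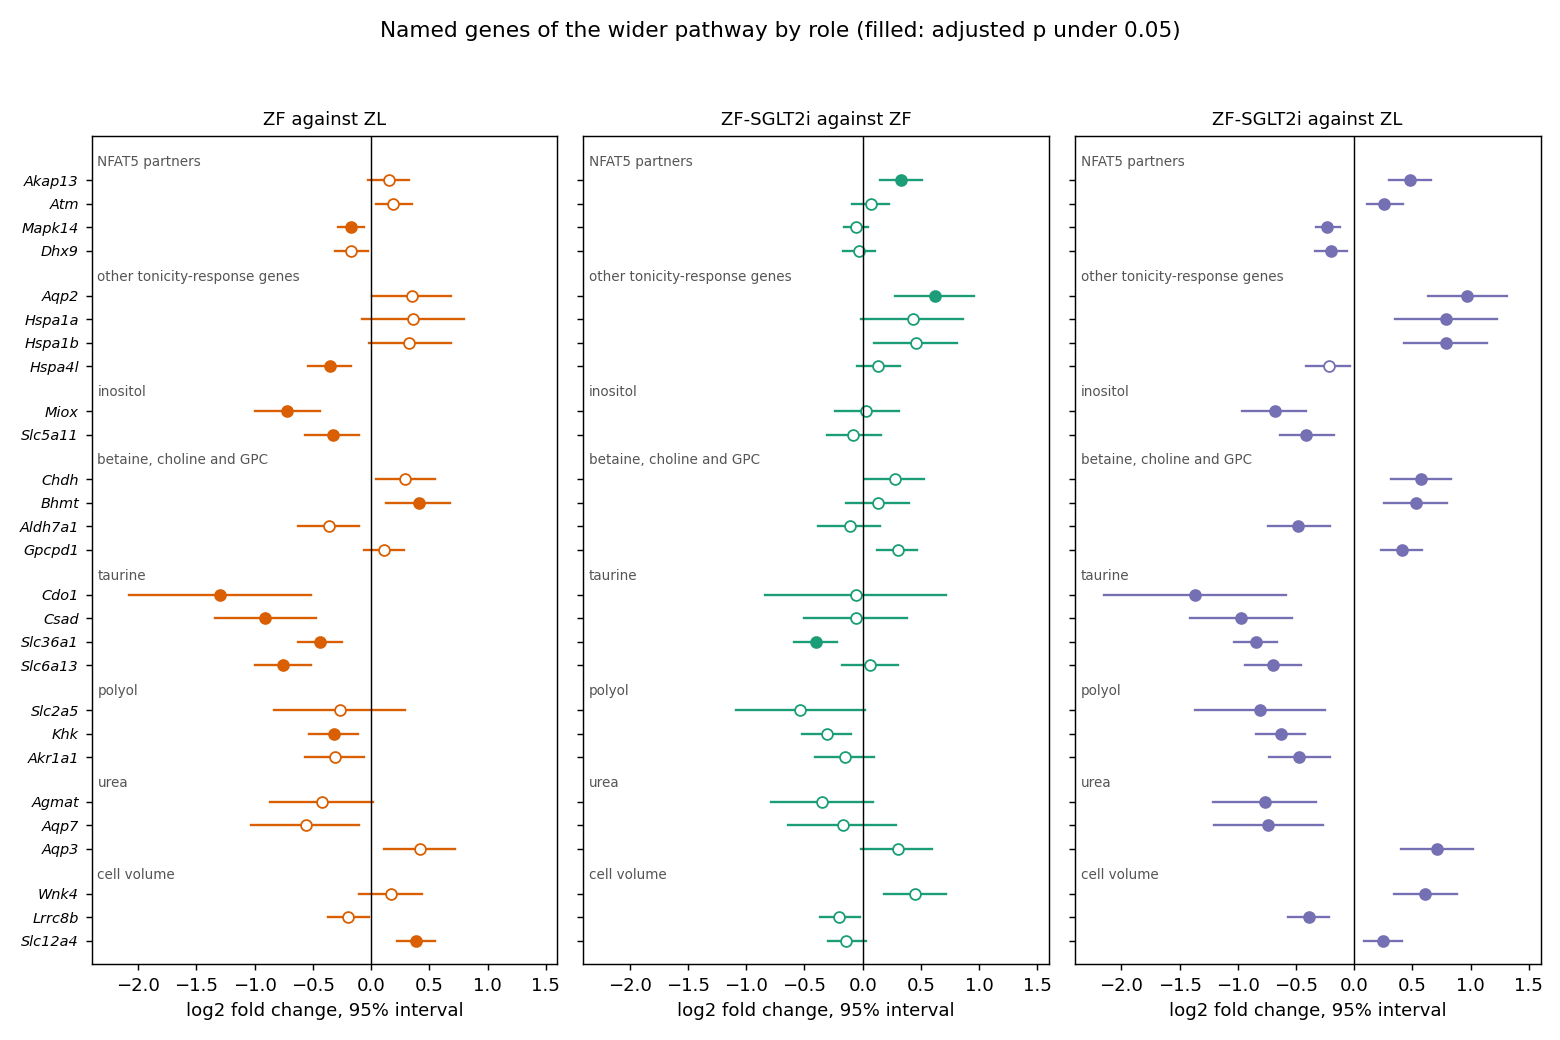
Log2 fold change of (value + 1) with its 95% interval (x axis) for the named genes of the wider list (y axis), arranged by role, with a panel for each of the 3 comparisons; filled points have an adjusted p under 0.05 in limma. The named taurine genes lie left of 0 in both comparisons with ZL, and Akap13, Aqp2 and Slc36a1 are the filled points of ZF-SGLT2i against ZF.

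Across the 12 rats, the genes did not move as a block. Pearson's r of the log2 values, given as a description over 12 rats that share group differences, was -0.731 between Slc5a3 and Slc6a6, 0.707 between Slc6a6 and Akr1b1 and -0.697 between Akr1b1 and Sord. With the group means removed, r was -0.331, 0.228 and -0.32. For Nfat5 and Slc6a12 the values were -0.733 and -0.863, although the latter rests on few reads. Of all tested genes, those with the highest r to each gene were Enthd2 (0.926) and Cabin1 (0.919) for Nfat5, Aff3 (0.935) and Sh3tc1 (0.883) for Slc5a3, and Dhodh (0.926) and Sgce (0.911) for Slc6a6. For Slc6a12 they were Twf2 (0.911) and Il1b (0.879), for Akr1b1 Rab3d (0.971) and Pde4b (0.962), and for Sord Susd2 (0.963) and Fam151a (0.957). These genes were picked as the highest of all tested genes over only 12 rats, and shared regulation was not tested.

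Some values may hold reads of other loci. The GRCr8 annotation names 5 pseudogenes each for Akr1b1 and Sord, and the Slc5a3 gene overlaps Mrps6. Slc6a6 and Akr1b1 each overlap 1 other annotated locus, and Sord and Slc14a2 each overlap 2. How the counting treated reads that fit several of these loci is not given in the sources used here.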

How the data were processed

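RNA from the renal cortex of 12 rats (RIN above 7 and depleted of rRNA) was sequenced in paired-end, stranded libraries. The authors deposited signal values for 13151 genes, which are read counts scaled per rat (CPM), and their processing notes name Trimmomatic 0.38, RSEM 1.3.0, Bowtie2, edgeR and the build rn6. Divided by the smallest value above 0 of its rat, each value gave a whole number (within 1.16e-10), which is given here as reads. RSEM estimates need not be whole, and whether they were rounded is not given in the sources used here. Between 8824980 and 12210257 reads per rat limit the precision of low genes. Rats within a group differed by more than the sampling noise (chi-square per gene 5.43 to 50.1).

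Genes that reached a value of 1 in 4 or more rats (11633) were fitted as log2(value + 1) with limma 3.58.1 in R 4.3.3 (3 groups in 1 fit, eBayes with trend, two-sided). Benjamini-Hochberg adjustment of the p-values covered all genes tested, and genes were called at an adjusted p-value under 0.05. A fold change on this scale understates that of low genes. Intervals are 95% intervals from the same fit. Single genes were also compared by two-sided exact permutation over the 70 assignments of 4 rats against 4. The labels give no batch. The fit was tested on simulated data.

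The 7 genes and all lists were chosen with earlier results of these data known. Named were all 7 genes and, per role of the wider list, up to 4 genes called in any comparison, by the size of their change; some listed genes are not reported here. Other settings were pseudocount, filter, scaling, samples, weights, a replicate block and omission of each rat. The omission of ZL rats 1 and 4 together was chosen after seeing the data. Promoter windows are from RefSeq (GRCr8).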

Additional observations from a re-analysis of the deposited data

Results flagged for a closer look

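In 2 of 102 groups of 4 rats looked at, the most extreme rat lay apart from the others by Dixon's 95% criterion, whereas about 5.1 such groups would arise by chance. Sord in ZL rat 4 was 499, against 615 to 639 in the other ZL rats. Bhmt in ZL rat 2 was 78.8, against 93.1 to 95.5 in the other ZL rats.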

How the results depend on the processing

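For the 7 genes, 361 of 407 alternative values kept their direction and their side of the threshold, and for the named genes of the wider list 1508 of 1701 did. The count of the 6 tested genes called in ZF against ZL (2) was 1 with only the 2 groups compared, 1 with the replicate block, 0 without ZL rats 1 and 4, and 1 to 3 when single rats were left out. In ZF-SGLT2i against ZL (4) it was 2 with the replicate block and 2 to 4 when single rats were left out, and in ZF-SGLT2i against ZF it was 0 under every alternative run. Over all genes, the replicate block gave 807 in place of 2185 calls in ZF against ZL, 223 in place of 366 in ZF-SGLT2i against ZF, and 1502 in place of 3184 in ZF-SGLT2i against ZL. Omission of single rats gave, in the same order, 1389 to 2453 calls (lowest without ZL rat 1), 176 to 570 calls (lowest without ZF-SGLT2i rat 3, highest on omission of ZF rat 5) and 2241 to 3302 calls. Array quality weights gave 689 calls in ZF-SGLT2i against ZF. Without ZL rats 1 and 4, the calls numbered 1048 in ZF against ZL, while ZF-SGLT2i against ZL had 1778. Quantile normalization moved the share of higher genes among those called in ZF against ZL from 43.6% to 53.9%. The cause of these shifts was not tested.

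Between rats with the same number, r of the deviations from the group means was -0.38 to 0.25 over 9 pairs, 2 above 0.1. The sources used here do not state that the numbers pair the rats. So few pairs cannot decide whether such rats share a factor. With the replicate block, Slc5a3 (adjusted p = 0.051) and Akr1b1 (adjusted p = 0.092 and 0.088) lost calls, as did Sord (adjusted p = 0.26), and Slc6a6 in ZF against ZL gained one (adjusted p = 0.037).

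Changes of sign occurred at adjusted p of 0.41 or more. In ZF against ZL, Nfat5 was -0.02 with the replicate block, -0.01 to 0.05 without single rats and -0.04 without ZL rats 1 and 4. In the latter setting Hspa1a was -0.03, Slc2a5 0.25, Agmat 0 and Slc14a2 0.08. Without single rats, Slc2a5 was -0.45 to 0.02 and Slc14a2 -0.21 to 0.08. In ZF-SGLT2i against ZF, the replicate block gave -0.02 for Akr1b1. Omission of single rats gave -0.03 to 0.1 for Slc6a6, -0.02 to 0.07 for Akr1b1, -0.07 to 0.02 for Dhx9, -0.03 to 0.13 for Miox, -0.18 to 0.02 for Slc5a11, -0.19 to 0 for Aldh7a1, -0.14 to 0.07 for Cdo1 and -0.15 to 0.01 for Csad. In ZF-SGLT2i against ZL, Slc6a12 was -0.01 with array quality weights and -0.09 to 0.23 without single rats.

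Depth limits Slc14a2 and Slc6a12, for which a few reads decide the value. Count models (edgeR, DESeq2) were not run, because a check of units did not accept whole reads for 3 rats whose step between values lay close to 0.1. Each value was still a whole multiple of its rat's step (within 1.16e-10). Thus limma is the only tool behind the calls.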
